A study of Mus musculus with 2 samples.

Results

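The binding of Gata3 was examined at 10 genes that mark T cells or set the choice between the CD4 and the CD8 lineage, out of 21938 protein-coding genes of GENCODE M21. The genes were chosen by name for their known roles, with earlier results of these data known, and they are *Cd8a*, *Cd8b1*, *Zbtb7b*, *Tox*, *Cd3e*, *Cd3d*, *Cd3g*, *Cd247*, *Cd5* and *Thy1*. Each was taken with its gene body and 20 kb to either side, and all 10 were found in the annotation and held reads in both libraries. The regions of *Cd8a* and *Cd8b1* overlap, as do those of *Cd3e*, *Cd3d* and *Cd3g*, so that the 10 regions form 7 loci with a joint length of 814.46 kb.

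The data are 2 libraries of anti-Gata3 chromatin immunoprecipitation-sequencing (ChIP-seq) from mouse splenic TH2 cells grown *in vitro*, numbered as replicates 1 and 2 of a single condition. Gata3 is the transcription factor that IL-4 raises in TH2 cells, and the study used the assay to look for its binding sites. The crosslinked chromatin was first sheared and, after the immunoprecipitation, treated with a transposase while bound to the beads (ChIPmentation). The age of the mice is not given in the sources used here. For TH2 differentiation the study's methods describe naive splenic CD4+ T cells stimulated through CD3 with costimulation and IL-2 and polarised by IL-4 and an antibody that neutralises IFN-γ. The ChIP methods say only that the TH2 cells were grown *in vitro*, and the labels name no treatment. The file naming carries the name of the CD4cre line, in which regulatory sequence of *Cd4* drives Cre recombinase in T cells, while no floxed allele is named for these libraries. The extraction text names ILC2 where the other labels name TH2 cells. ChIP-seq reads do not measure expression, so the labelled cell type could not be checked against its markers. Nothing states that the 2 libraries came from separate cultures, so the spread between them may be technical, and the cells were measured in bulk. There was no input or IgG library to compare with, and peaks were therefore read against the density around them. Without such a library, reads gathered at open chromatin cannot be told apart from binding of Gata3. Library 1 held 40526613 reads and library 2 held 24970952, and the read names show a different sequencing instrument for each.

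CD8 is the coreceptor of cytotoxic T cells and is made of the chains encoded by *Cd8a* and *Cd8b1*. TH2 cells belong to the CD4 lineage, in which these genes are normally silent. *Zbtb7b* encodes ThPOK, the factor that commits thymocytes to the CD4 lineage, and Gata3 is known to act before it in that choice, as does Tox, a nuclear protein of the HMG-box family. *Cd3e*, *Cd3d*, *Cd3g* and *Cd247* encode the signalling chains that carry the T cell receptor to the surface, *Cd5* encodes a receptor that dampens its signal, and *Thy1* encodes the GPI-anchored surface protein long used as a T cell marker. GATA factors recognise a short sequence, GATA preceded by A or T and followed by A or G.

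A peak is a stretch of 200-bp windows with more reads than the densest of 3 backgrounds (the whole library, the surrounding 5 kb and the surrounding 10 kb), by a one-sided exact Poisson test at a Benjamini-Hochberg q of 0.01 over the windows of the library that held a read. These were 39497351 windows in library 1, of which 0.963% passed, and 35250442 windows in library 2, of which 0.391% passed. A peak was shared where the peaks of both libraries overlapped, and the regions held 32 shared peaks. Within each locus they are numbered by height, which is the lower of the libraries' RPM in the 200-bp window at the summit. Reads of a shared peak were counted in each library at its own summit unless the same window is named. Printed positions and sequences are centred on the summit of library 1, so the library 2 count can come from a shifted window. RPM are the reads scaled to 1000000 reads of the library. The windows below are the tallest shared peak of 6 of the 7 loci, the next peaks of *Tox* and the CD3 genes, and the *Thy1* window with the most matches. They were read from the plus strand of GRCm38, and capitals mark each match to the GATA sequence on either strand.

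Cd8 peak 1: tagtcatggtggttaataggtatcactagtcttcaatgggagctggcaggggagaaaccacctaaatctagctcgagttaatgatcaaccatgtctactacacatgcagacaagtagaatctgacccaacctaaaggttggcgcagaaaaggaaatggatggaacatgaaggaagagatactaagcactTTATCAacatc
Zbtb7b peak 1: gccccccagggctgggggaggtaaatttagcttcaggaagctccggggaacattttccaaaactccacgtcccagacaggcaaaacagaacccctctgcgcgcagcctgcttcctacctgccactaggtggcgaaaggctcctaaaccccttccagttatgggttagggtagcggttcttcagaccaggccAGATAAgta
Tox peak 1: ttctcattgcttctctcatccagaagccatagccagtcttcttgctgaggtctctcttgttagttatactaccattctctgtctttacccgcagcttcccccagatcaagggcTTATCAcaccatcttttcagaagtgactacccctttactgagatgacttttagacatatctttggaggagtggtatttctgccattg
Tox peak 2: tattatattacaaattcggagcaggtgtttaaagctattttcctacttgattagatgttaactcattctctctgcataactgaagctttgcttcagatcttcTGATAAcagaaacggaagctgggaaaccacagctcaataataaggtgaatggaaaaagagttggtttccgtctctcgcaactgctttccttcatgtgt
Cd3 peak 1: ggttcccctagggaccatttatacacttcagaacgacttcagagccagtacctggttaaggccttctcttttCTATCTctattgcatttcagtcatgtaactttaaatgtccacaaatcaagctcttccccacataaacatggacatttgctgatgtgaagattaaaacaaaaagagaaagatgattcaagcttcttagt
Cd3 peak 2: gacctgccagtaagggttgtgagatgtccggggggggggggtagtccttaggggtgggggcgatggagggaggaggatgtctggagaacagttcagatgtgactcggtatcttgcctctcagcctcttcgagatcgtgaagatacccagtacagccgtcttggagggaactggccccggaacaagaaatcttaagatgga
Cd3 peak 3: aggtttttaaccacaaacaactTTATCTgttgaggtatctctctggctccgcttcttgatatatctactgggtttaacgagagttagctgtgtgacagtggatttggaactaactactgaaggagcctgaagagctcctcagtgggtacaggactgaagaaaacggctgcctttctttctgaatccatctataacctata
Cd5 peak 1: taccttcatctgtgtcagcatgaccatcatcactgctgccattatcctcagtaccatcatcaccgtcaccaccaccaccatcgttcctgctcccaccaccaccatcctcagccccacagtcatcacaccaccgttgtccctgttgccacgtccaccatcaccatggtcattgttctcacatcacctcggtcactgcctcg
Thy1 peak 1: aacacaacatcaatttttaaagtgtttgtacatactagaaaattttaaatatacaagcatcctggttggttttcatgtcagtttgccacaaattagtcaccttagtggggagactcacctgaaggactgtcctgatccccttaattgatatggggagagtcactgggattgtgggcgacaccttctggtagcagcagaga
Thy1 peak 4: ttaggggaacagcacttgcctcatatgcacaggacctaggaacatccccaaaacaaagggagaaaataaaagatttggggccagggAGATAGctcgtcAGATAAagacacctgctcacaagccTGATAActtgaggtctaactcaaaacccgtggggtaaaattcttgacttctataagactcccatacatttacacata

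The 10 windows show how varied the sequence under the peaks was. Distances of GATA matches from the summit of library 1 are given to their nearest base, and those of other sequences to their first base on the plus strand. Tox peak 2 and Tox peak 1 carry a match within 14 bp of the summit, and Thy1 peak 4 carries 3 matches. In Cd8 peak 1 and Zbtb7b peak 1 the match lies near the edge of the window, 90 and 92 bp from the summit. Cd3 peak 2, Cd5 peak 1 and Thy1 peak 1 carry no match in the 200 bp. Cd5 peak 1 holds runs of CAC and CAT units.

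The shared peaks were spread unevenly over the genes. *Tox* held 10, the 3 neighbouring CD3 genes held 6 between them, *Cd247* held 6, and *Cd5* and *Thy1* held 4 each, while *Cd8a* and *Zbtb7b* held 1 each and *Cd8b1* held 0. The loci differ in length, and per 100 kb the order was another. It was 8.85 at *Thy1*, 7.49 at the CD3 genes, 6.46 at *Cd5*, 4.67 at *Cd247*, 2.90 at *Tox*, 1.75 at *Zbtb7b* and 1.04 at the *Cd8* genes. By gene, 9 of the 10 had a shared peak in the region, where 54.8% of all protein-coding genes had one (58.6% of the 20508 genes whose region held at least 0.05 RPM per kb in either library). At the promoter, taken as 2 kb either side of the gene start, 5 of the 10 had a shared peak, namely *Zbtb7b*, *Cd3e*, *Cd3d*, *Cd3g* and *Cd247*, where 11.7% of all genes had one. The starts of *Cd3d* and *Cd3g* are neighbours and Cd3 peak 4 counts for both, so the 5 are not independent. The median height of the 32 peaks was 0.975 RPM, where the median of all 23806 shared peaks of the genome was 0.801 RPM. Of the 32, 8 stood above percentile 90 of all shared peaks and 25 above percentile 50.

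**Figure D1:**
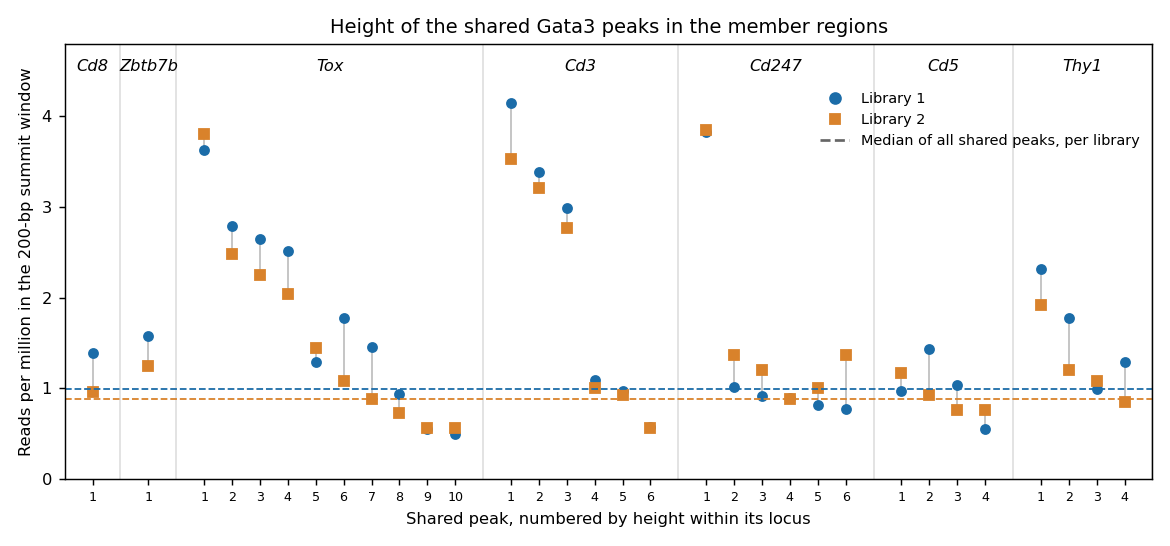
Height of each of the 32 shared peaks as RPM in the 200-bp summit window of library 1 (circles) and library 2 (squares), grouped by locus and numbered by height, with dashed lines at the median of all shared peaks in each library. The 8 tallest are Tox peaks 1 to 4, Cd3 peaks 1 to 3 and Cd247 peak 1, and the other peaks lie nearer to the genome-wide medians of 0.988 and 0.881 RPM.

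*Cd8a* and *Cd8b1*, the genes of the coreceptor that TH2 cells do not use, had the fewest reads. The region of *Cd8b1* (chr6:71322788-71337494 for the gene, on the plus strand) held 1094 reads in library 1 and 708 in the other. That is a density of 0.494 and 0.519 RPM per kb, against a median over all genes of 0.500 and 0.488. The gene body and the promoter were denser than at most genes, with the body at percentiles 72.1 and 66.1 and the 4-kb promoter window at percentiles 78.6 and 83.4. Its tallest window had 19 reads in library 1 (21912 bp after the start) and 17 in library 2 (21962 bp after it), in the space between the genes. A peak was called there in library 1 alone, as was another with 18 reads in intron 1, 1512 bp after the start, where library 2 held 8 reads. With counts this small, a weak site is not shown to be absent. The windows of 400 bp and the unshifted reads each gave *Cd8b1* a shared peak.

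*Cd8a* (chr6:71373427-71379173, plus strand) had 1 shared peak, Cd8 peak 1, at chr6:71387401-71387600, 14073 bp after the gene start and beyond its end, between genes. It held 56 reads in library 1 and 24 in library 2, or 1.38 and 0.962 RPM. It stood 6.86-fold above the background around it in library 1 and 6-fold in library 2. Between the gene and the peak lies a stretch of 1640 bp, 98.2% of it repeat, where neither library had a read. Part of it falls in the surroundings used as background, so the fold may be overstated. The peak was lost at a q of 1e-10. The adjusted p of the one-sided exact Poisson test was 8.92e-25 and 9.81e-09. Around the start of *Cd8a* the 4-kb promoter window held 85 and 52 reads, a density at percentiles 46.6 and 44.4 of all promoters. The gene body stood at percentiles 38.3 and 32.4. The peak downstream was the only call that both libraries shared in the *Cd8a* region.

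*Zbtb7b* (chr3:89377644-89394776, minus strand) also had a single shared peak, but at its promoter. Zbtb7b peak 1, at chr3:89396451-89396650, lay 1774 bp upstream of the gene start in intron 1 of *Gm15417*, annotated as antisense to it. It held 64 reads in library 1 and, at the summit of library 2, 31 in library 2, or 1.58 and 1.24 RPM. In the same window as library 1, library 2 held 23 reads. The peak stood at percentile 76.1 of all shared peaks. Its adjusted p was 3.15e-22 and 7.92e-11 by the exact Poisson test. The peak was still called at a q of 1e-10 and at a minimum of 5-fold. With a promoter of 1 kb it no longer counted as a promoter peak. At the 1-kb window around the outermost start itself the libraries held 43 and 18 reads.

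*Tox* (chr4:6686353-6991557, minus strand), the longest of the genes, held 10 shared peaks, all inside the gene body. Of these, 7 lay in intron 1, and Tox peaks 9 and 10 in intron 3 and Tox peak 8 in intron 7 were among its lowest. The count has to be read against the length of 345.205 kb. Of 386 genes whose region was within 20% of that length, 76.9% had a shared peak, the median was 3, and 9.59% had as many as *Tox*.

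The tallest, Tox peak 1 at chr4:6869451-6869650, lay 122007 bp inside the gene. It held 147 reads in library 1 and 95 in library 2, or 3.63 and 3.81 RPM, with the same summit in both libraries. It stood at percentile 98.4 of all shared peaks, and the GATA match lay 14 bp from the summit. Tox peak 2 at chr4:6902151-6902350, 89307 bp inside the gene, held 113 and 62 reads, with its match 3 bp from the summit. Beside that match is a RUNX-type sequence (ACCACA), 28 bp from the summit.

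Tox peak 3 at chr4:6970401-6970600 held 107 and 56 reads and lay 21057 bp from the start. Tox peak 4 at chr4:6960101-6960300 held 102 and 51 reads and lay 31357 bp from the start. Each carried 2 GATA matches, and Tox peak 4 also carried an AP-1 sequence (TGAGTCA) 51 bp from the summit. All 4 were called in both libraries at a q of 1e-10. Tox peaks 5 and 6, at 15557 and 8757 bp from the start, were the nearest to the promoter and held 52 and 36 reads and 72 and 27 reads. The 2 kb either side of the *Tox* start itself held no shared peak, and a peak 507 bp after it was called in library 1 alone, with 22 reads against 7 in library 2. The gene also had the most peaks of library 1 alone, 13, and 1 of library 2 alone.

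**Figure D2:**
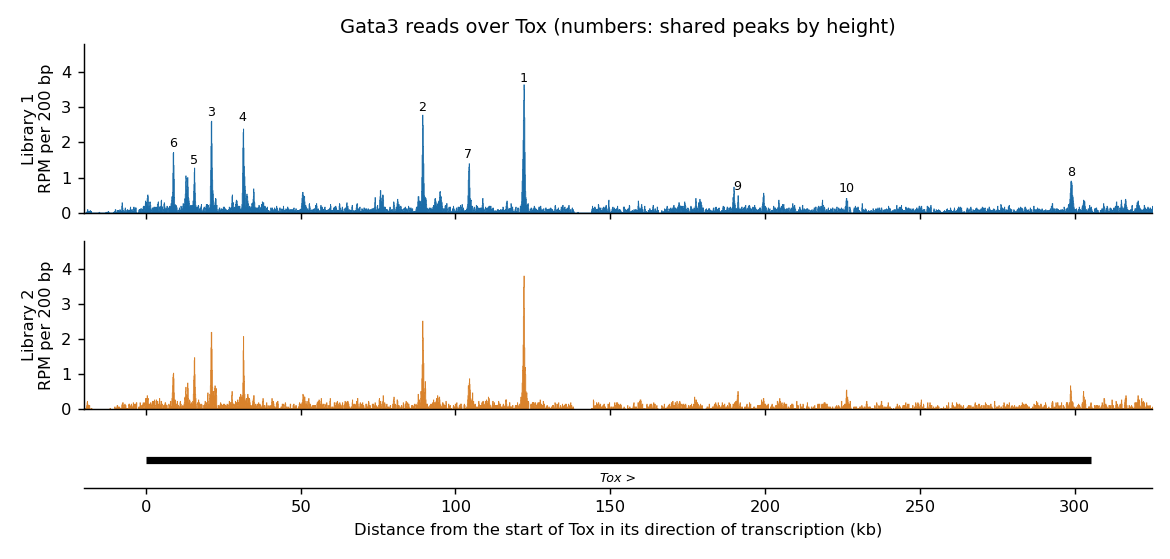
RPM per 200-bp window over *Tox* and 20 kb either side in library 1 (top) and library 2 (bottom), by distance in kb from the gene start in the direction of transcription, with the gene drawn as a bar and the shared peaks numbered. The tall peaks stand at the same distances in both libraries, between 8757 and 122007 bp after the start, and the last part of the gene holds only low ones.

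The 3 CD3 genes on chromosome 9 lie side by side. Their joint locus of 80.056 kb held 3662 and 2130 reads, or 1.13 and 1.07 RPM per kb, and the *Cd3e* region, which takes in peaks at *Cd3d* and *Cd3g*, was the densest of the 10 in both libraries. The body of *Cd3e* alone had 0.755 and 0.795 RPM per kb and held 0 shared peaks. Shared peaks took 51.8% of the reads of the *Cd3e* region in library 1 and 47.1% in library 2. Among 11757 genes with a region of like length, 0.170% had as many as the 6 shared peaks of *Cd3e*.

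Cd3 peak 1 at chr9:45023651-45023850 lay 14123 bp upstream of the *Cd3e* start, between genes, and was the broadest, joined over 1250 bp in library 1 and 1200 bp in library 2. It held 168 reads in library 1 and 88 in library 2, or 4.15 and 3.53 RPM, at percentile 98.2. The GATA match was 22 bp from the summit. Although it is among the most significant peaks of the set, with an adjusted p of 6.07e-64 and 4.14e-26 by the exact Poisson test, it was 5.66-fold and 4.54-fold above its broad surroundings and was lost at a minimum of 5-fold.

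*Cd3e* (chr9:44998740-45009627, minus strand) encodes the epsilon chain, which pairs with both other chains. Cd3 peak 3 at chr9:45010451-45010650 lay 923 bp upstream of its start, with 121 and 69 reads and the same summit in both libraries. It carried a GATA match 72 bp from the summit and a RUNX-type sequence 90 bp from it on the same side. The promoter window of *Cd3e* stood at percentile 99.2 of all promoters in both libraries. The 1 kb around the start held 74 and 59 reads, fewer than the 121 and 69 in the 200-bp window at the summit upstream.

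*Cd3d* (chr9:44981786-44987339, plus strand) and *Cd3g* (chr9:44969572-44980431, minus strand), for the delta and gamma chains, are read away from each other from neighbouring starts. Cd3 peak 2 at chr9:44986151-44986350 lay in intron 4 of *Cd3d*, 4464 bp after its start, with 137 and 80 reads or 3.38 and 3.21 RPM. *Cd3d* has 2 further annotated transcript starts shortly before this window, inside the stretch joined as the peak in library 1. The 1 kb around the nearer of them takes in the summit window itself and held 368 and 187 reads. That around the gene start held 82 and 34. The peak had no GATA match, and an ETS-type sequence (CCGGAA) stood 76 bp from the summit. With this peak the short gene body of *Cd3d* reached 3.04 and 2.71 RPM per kb, percentile 99.8 of all gene bodies in both libraries.

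The starts of *Cd3d* and *Cd3g* were flanked by lower peaks. Cd3 peak 4 at chr9:44981151-44981350, 536 bp upstream of *Cd3d*, held 44 and 25 reads, and Cd3 peak 5, 1431 bp inside *Cd3g* in intron 1, held 39 and 23 reads. Neither carried a GATA match. Cd3 peak 4 was 2.47-fold and 2.72-fold and Cd3 peak 5 was 2.34-fold and 2.88-fold above the reads around them, and both were lost at a q of 1e-10, at a minimum of 5-fold and with windows of 100 bp. The promoter call of *Cd3d* rests on Cd3 peak 4, and that of *Cd3g* on both of these peaks. Cd3 peak 6, beyond the end of *Cd3e*, was the lowest of the locus with 23 and 14 reads, and it had a GATA match 52 bp from the summit.

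**Figure D3:**
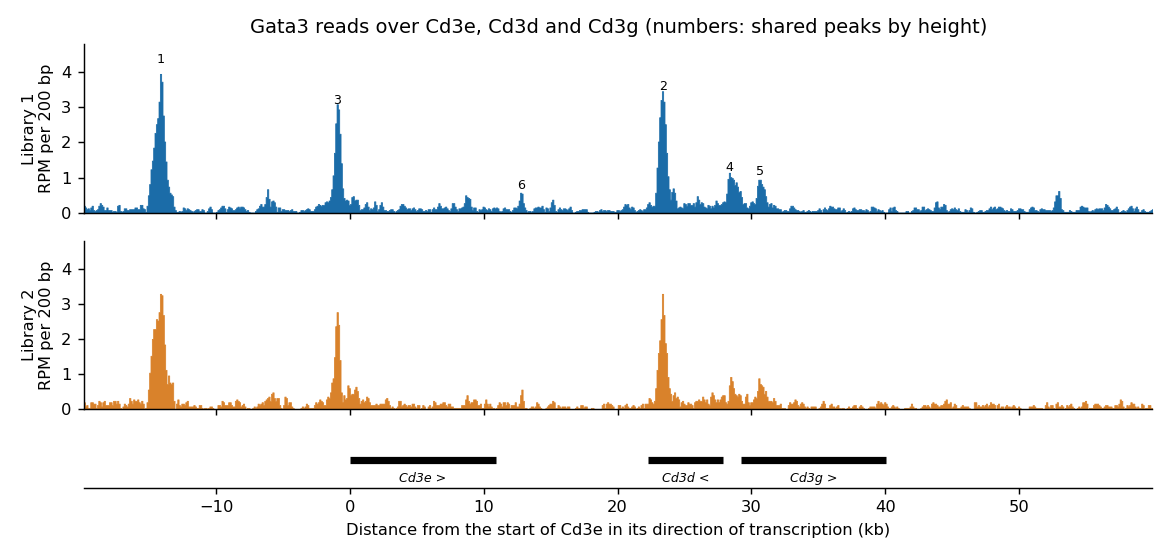
RPM per 200-bp window over *Cd3e*, *Cd3d* and *Cd3g* in library 1 (top) and library 2 (bottom), by distance in kb from the *Cd3e* start in its direction of transcription, with genes as bars and shared peaks numbered. Cd3 peaks 1, 2 and 3 stand between 2.99 and 4.15 RPM in library 1 and at about the same places in library 2, and the remaining peaks stay near 1 RPM or below.

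*Cd247* (chr1:165788681-165877277, plus strand) encodes the zeta chain and lies on another chromosome. Its 6 shared peaks were all inside the gene span, and their heights were unequal. Cd247 peak 1 held 155 reads in library 1 and 96 in library 2, or 3.83 and 3.85 RPM. That was percentile 98.8 of all shared peaks, the highest of the 32, with an adjusted p of 7.45e-65 and 6.28e-37 by the exact Poisson test.

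The other peaks of *Cd247* held between 31 and 41 reads in library 1 and between 22 and 34 in library 2. Cd247 peaks 3 and 5, at 1319 and 519 bp after the start, were the promoter peaks, with 37 and 30 reads and 33 and 25 reads. Cd247 peak 2 was 40069 bp and Cd247 peak 4 was 12869 bp inside intron 1. Cd247 peak 6 was 87469 bp from the start, near the end of the gene span but outside the *Cd247* transcript with the most exons. Its summit also lay in intron 16 of *Pou2f1*, which overlaps *Cd247*. Cd247 peak 6 carried 2 GATA matches, and its RPM was higher in library 2 (1.36) than in library 1 (0.765). None of these 5 was called at a q of 1e-10 or at a minimum of 5-fold in both libraries.

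*Cd5* (chr19:10717116-10739002, minus strand) had 4 shared peaks, between percentiles 18.4 and 63.4 of all shared peaks by height, and none at the promoter. The tallest, Cd5 peak 1 at chr19:10732201-10732400, lay in intron 1 at 6702 bp from the start and held 39 and 29 reads, or 0.963 and 1.16 RPM. In the same window as library 1, library 2 held 18 reads. The other 3 lay 5898, 11298 and 18398 bp upstream of *Cd5*, in intron 1 of *A430093F15Rik*, annotated as a processed transcript. Of these, Cd5 peak 2 held 58 reads in library 1 and 23 in library 2, Cd5 peak 3 held 42 and 19, and Cd5 peak 4 held 22 and 19. GATA matches were found in Cd5 peak 2 and, with 2 matches, in Cd5 peak 3. All 4 were lost at a q of 1e-10 and at a minimum of 5-fold.

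*Thy1* (chr9:44043384-44048579, plus strand) had 4 shared peaks, on both sides of the gene and none in its body. The body still had 1.37 and 1.16 RPM per kb, percentiles 98.6 and 97.8 of all gene bodies. A peak in exon 4 was called in library 1 alone, with 49 reads against 21 in library 2. The tallest shared peak, Thy1 peak 1 at chr9:44052901-44053100, lay 9616 bp after the start, past the end of the gene, with 94 and 48 reads or 2.32 and 1.92 RPM. It stood at percentile 89.3 and was still called at a q of 1e-10 in both libraries. Thy1 peak 2, 5466 bp after the start and just past the gene end, held 72 and 30 reads. Its AP-1 sequence (TGAGTCA) was 18 bp from the summit, and it had no GATA match.

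Upstream of *Thy1* the peaks were lower. Thy1 peak 3, 2034 bp before the start, held 40 and 27 reads, and Thy1 peak 4 at chr9:44029451-44029650, 13834 bp before it, held 52 and 21. Thy1 peak 4 was the window with 3 GATA matches, of which the nearest spans the summit of library 1. The summit of library 2 lay 150 bp away, and none of the 3 matches lies in the 200-bp window there. Thy1 peak 4 was lost where the summits had to lie within 100 bp. It was also lost at the stricter thresholds and with windows of 100 bp. Thy1 peak 3 lay just outside the 2 kb of the promoter. *Thy1* had a promoter peak with windows of 100 bp, and also when every annotated transcript start was used, where Thy1 peak 2 lies near the start of a short transcript at the end of the gene.

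**Figure D4:**
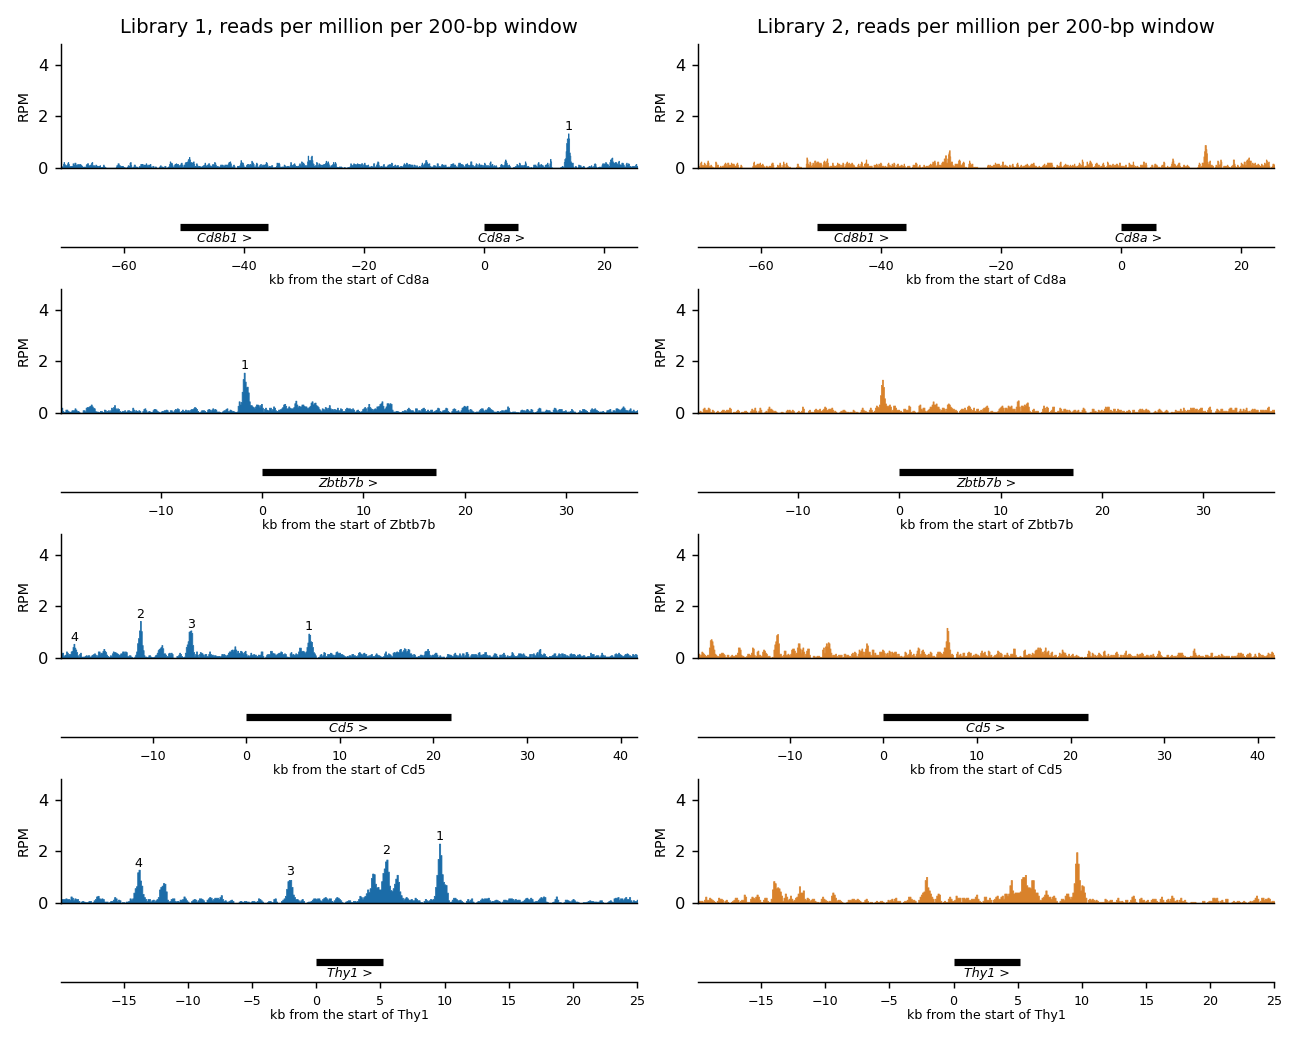
RPM per 200-bp window at the *Cd8* genes, *Zbtb7b*, *Cd5* and *Thy1* in library 1 (left) and library 2 (right) on the same vertical scale, by distance in kb from the named gene start in its direction of transcription, with genes as bars and shared peaks numbered. Thy1 peak 1 is the tallest of these panels at 2.32 and 1.92 RPM, and the *Cd8b1* side of the top panels stays below 1 RPM.

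Taken per length, the regions had an order that was largely the same in both libraries. *Cd3e* was highest, at 1.49 (95% exact Poisson interval 1.44 to 1.54) RPM per kb in library 1 and 1.41 (1.34 to 1.47) in library 2. *Cd8b1* was lowest, at 0.494 (0.465 to 0.524) and 0.519 (0.481 to 0.558). The intervals cover counting error only. The *Cd3e* region stood at percentile 99.9 of all genes in both libraries, and *Cd8b1* at percentiles 48.5 and 59.0.

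Between these ends, *Cd3d* came next in library 1 (interval 0.955 to 1.05 RPM per kb), followed by *Thy1*, *Cd3g*, *Cd247* and *Cd5* at 0.969, 0.928, 0.844 and 0.781. In library 2 these 5 had 0.892, 0.909, 0.814, 0.927 and 0.779, so that *Cd247* moved from the fifth place to the second. *Tox* with 0.700 and 0.601 and *Zbtb7b* with 0.680 and 0.589 could not be told apart by their intervals in either library. The intervals of *Cd3d*, *Thy1* and *Cd3g* overlapped in library 1, so the order of these genes was not resolved there. In library 2 the intervals of *Cd247*, *Thy1* and *Cd3d* overlapped, and that of *Cd3g* overlapped those of *Thy1*, *Cd3d* and *Cd5*. Lower down in library 2, the interval of *Cd8a* overlapped those of *Cd8b1*, *Tox* and *Zbtb7b*, and that of *Cd8b1* also overlapped that of *Zbtb7b*. In library 1, *Cd8a* at 0.556 (0.522 to 0.591) and *Cd8b1* had intervals that overlapped narrowly. The regions of neighbouring genes share reads, so their densities are not independent.

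**Figure D5:**
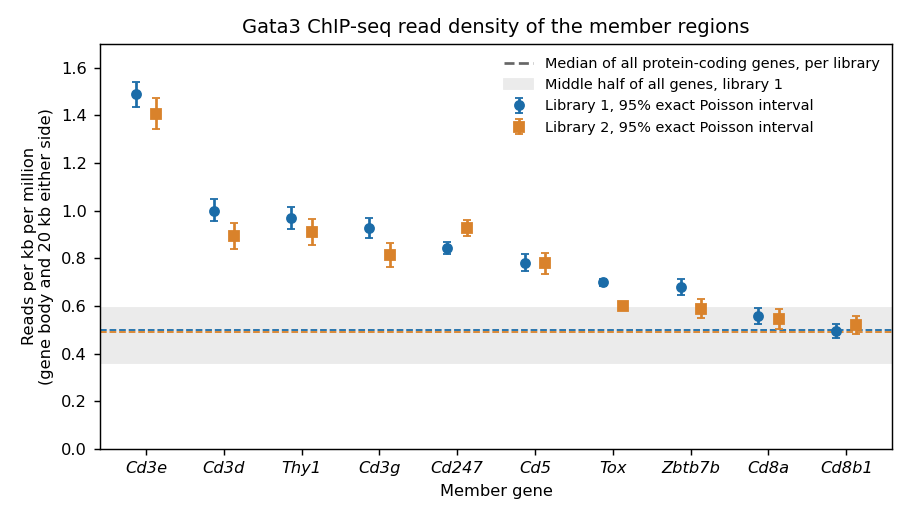
Read density of each gene body with 20 kb either side, in RPM per kb, in library 1 (circles) and library 2 (squares) with 95% exact Poisson intervals, ordered by library 1, with dashed medians of all protein-coding genes and a grey band for the middle of their range in library 1. *Cd3e* lies at 1.49 and 1.41, far above the band, and *Cd8a* and *Cd8b1* lie inside it in both libraries.

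The GATA sequence was present within 100 bp of the summit in 21 of the 32 shared peaks (65.6%, 95% exact binomial interval 46.8 to 81.4%), and in 70.9% of all shared peaks. In windows of the same length 1 kb to either side it was present in 37.5% at the 32 peaks and in 33.2% over all shared peaks. Within 50 bp of the summit, 13 of the 32 had a match, or 40.6%, against 46.4% of all shared peaks. By locus, *Tox* had a match in 9 of 10 peaks, *Cd247* in 4 of 6, the CD3 genes in 3 of 6, *Cd5* in 2 of 4 and *Thy1* in 1 of 4. The 7 loci held 1905 matches in all, of which 28 (1.47%) lay at a shared summit. *Cd8b1* had 112 matches in its region and no shared peak.

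Other sequences were rarer. The AP-1 sequence, TGA and TCA with C or G between them, was found at 3 summits, or 9.38%, against 12.3% of all shared peaks. The RUNX-type sequence TGTGGT or its complement ACCACA was at 6 (18.8% against 17.1%), and the ETS-type sequence CCGGAA or TTCCGG at 2 (6.25% against 2.49%). With so few summits these shares were not distinguishable from those of all peaks, whose values lay inside the 95% exact binomial intervals. A match is a description of the letters and not evidence that a factor was bound.

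Among the 32 peaks, each called in both libraries by definition, the summits coincided in 10 and lay within 100 bp in 24 (75%), where 78.8% of all shared peaks did. In a two-sided exact binomial test of how the reads at the summit were split between the libraries, 0 of the 32 peaks passed an adjusted p of 0.05, where 1.94% of all shared peaks did. At an unadjusted p under 0.05 there were 8 of the 32, where 17.5% of all shared peaks passed. The least even was Tox peak 7, with 59 reads in library 1 and 18 in the same window of library 2, a ratio of 2.02 in RPM (95% interval 1.17 to 3.64, exact p = 0.00689, adjusted p = 0.114). The windows were centred on the summits of library 1, which favours that library. With the whole joined interval counted, 6 of the 32 passed, where 15.7% of all shared peaks did. Unshifted reads on the minus strand lay a median of 70 bp in library 1 and 75 bp in library 2 after those on the plus strand, as at all shared peaks (70.5 and 68 bp).

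Not all calls were shared. Another 28 peaks of these regions were called in library 1 alone and 2 in library 2 alone, so that 60 and 34 were called against 32 shared. Over the whole genome 71726 peaks were called in library 1 and 28204 in library 2, against 23806 shared. Besides the 13 in *Tox* and 6 in *Cd247*, library 1 alone had 3 at *Thy1*, 2 at *Cd8b1*, 1 at *Cd8a* and 3 at the CD3 genes. Of the CD3 ones, that 6123 bp upstream of *Cd3e* held 27 reads in library 1 and 8 in library 2 and carried 3 GATA matches. Another, 23731 bp after the start of *Cd3g*, held 26 and 4 reads and had the lowest p of the 3. With library 1 thinned to the read number of library 2, 29 of the 32 shared peaks were still called. Over the whole genome this thinning gave 21314 shared peaks in place of 23806.

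Genes that act in the same choice or the same receptor were counted in the same way. Of 13 other genes of lineage choice, all 13 had a shared peak in the region and 7 at the promoter, with a median of 4 peaks, where the 10 genes above had a median of 4 and all protein-coding genes a median of 1. Over all protein-coding genes, 54.8% had a shared peak in the region and 11.7% at the promoter. Of 8 genes of the receptor's nearest signalling, 7 had a shared peak and 3 at the promoter, with a median of 2.5, and *Lat*, an adaptor of the receptor, had 0. A further gene of that list was not analysed here. *Cd4*, the coreceptor gene of the lineage to which TH2 cells belong, had 7 shared peaks, and its tallest held 173 reads in library 1 and 128 in library 2, or 4.27 and 5.13 RPM, 1471 bp after the start. That was the tallest of the list and taller than all of the 32 peaks above. The region of *Cd4* had 2.3 RPM per kb in library 1 and 2.6 in library 2, against 0.556 and 0.543 for that of *Cd8a*. Reads from regulatory sequence of *Cd4* in a Cre transgene, if the cells carried one, cannot be told apart from reads of the gene itself. *Runx3*, which encodes a factor of the CD8 lineage that silences *Cd4* there, had 6 shared peaks, 1 of them at the promoter, and its tallest held 60 and 26 reads.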

How the data were processed

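Gata3 ChIP-seq of in vitro TH2 cells was analysed in 2 libraries of 1 condition, so no groups were compared. Per the submitters' processing notes and the paper, the authors aligned single reads with Bowtie2 (2.3.5.1) to GRCm38 and kept uniquely placed reads. The notes also name MACS2 (2.1.2), with no role given. The authors deposited 1 line per aligned read with its position, strand and mapping quality score. This score is not a measure of binding. In the deposited lines 0 reads shared a 5′ end and strand, so no 200-bp window can exceed 400 reads, which limits the height of peaks.

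Library 1 had 40504814 reads and library 2 had 24959052 on chromosomes 1 to 19, X and Y, a mean of 2.97 and 1.83 reads per 200 bp, and RPM (reads scaled to 1000000) are relative to these totals. After a shift of 100 bp in their 3′ direction, reads were counted in 200-bp windows placed every 50 bp. Windows that passed the test were joined within 100 bp. The local means include the reads of the peak itself. Since windows overlap, their tests depend on each other. A peak belonged to a region by its summit in library 1. GENCODE M21 gave genes, and introns are numbered in the transcript with the most exons. Sequence came from the NCBI reference of the same build. Intervals and p-values cover counting error only. The window test, the split test and the sequence search were tested on simulated data.

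All 10 genes were named, with the tallest shared peak of each region and up to 3 further ones by height; all others are given by ranges or counts, or named after their values were seen. Of the other genes, *Cd4*, *Runx3* and the gene with the tallest peak were to be named. The sequence and position of 1 peak are not reported here. *Lat* was named after its value was seen. The genes and lists were chosen with earlier results of these data known. The limit of 0.05 RPM per kb was set after the data were seen. Alternatives were stricter thresholds, other windows, unshifted reads, a mapping quality of at least 30, nearer summits, thinning, each library alone, other regions and promoters, and other sequence matches. Python 3.11.15, NumPy 2.4.6, SciPy 1.17.1 and Matplotlib 3.10.9 were used.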

Additional observations from a re-analysis of the deposited data

How the results depend on the processing

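Against 32 shared peaks in the regions, a q of 1e-10 gave 10, a minimum of 5-fold gave 12 and the gene bodies alone gave 19, fewer by construction, and each library alone gave between 34 and 60. Over the whole genome a q of 1e-10 gave 5154 shared peaks and a minimum of 5-fold gave 6379, in place of 23806. The genes with a shared peak fell from 9 to 5 with gene bodies alone. Promoter peaks fell from 5 genes to 2, *Zbtb7b* and *Cd3e*, at a q of 1e-10 and at a minimum of 5-fold. The share of all promoters with a shared peak at these thresholds is not given here, so the fall cannot be compared with it. Of all protein-coding genes, 12018 had a shared peak in the region. This number was 4307 at a q of 1e-10, 5359 at a minimum of 5-fold and 6441 with gene bodies alone. The share of summits with the GATA sequence went from 65.6% to 40.6% within 50 bp and to 34.4% for AGATAA alone, both narrower by construction. Over all shared peaks it went from 70.9% to 46.4% and to 40.7%. Uneven splits rose from 0 to 6 peaks with the whole joined interval, and the cause was not tested. With windows of 400 bp, unshifted reads, 50 kb to either side or library 1 alone, *Cd8b1* also had a peak. The 10 peaks called at a q of 1e-10 included Tox peaks 1 to 4, Cd3 peaks 1 to 3, Cd247 peak 1, Thy1 peak 1 and Zbtb7b peak 1. No paired analysis was possible because a single condition was measured. With 1 condition, 2 libraries and no input, the data show where reads gather and no change of binding. With library 1 thinned to the read number of library 2, 46830 peaks were called in it over the genome, in place of 71726, against 28204 in library 2.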
